A study of Rattus norvegicus with 12 samples.

Results

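Messenger RNA of 10 genes of necroptosis and pyroptosis, the lytic forms of programmed cell death, was followed in cultured neonatal rat ventricular myocytes (NRVMs). The genes are Zbp1, Ripk1, Ripk3, Mlkl, Casp8, Casp1, Casp4, Gsdmd, Nlrp3 and Pycard. They were taken by symbol from the deposited tables, and all 10 are among the 18469 genes listed there. NRVMs are the beating muscle cells of newborn Sprague-Dawley rat hearts, separated from fibroblasts on a density gradient and kept in medium with insulin, transferrin and selenium. Sequencing covered 12 libraries that fall into 4 groups of 3. The siNeg cells received a negative control siRNA and were otherwise untreated, and the siNeg.PE cells received the same siRNA and then phenylephrine (PE), a drug that acts on α-adrenergic receptors and enlarges cardiomyocytes. The siSlc25a26 and siSlc25a26.PE cells received an siRNA against Slc25a26, which encodes the mitochondrial carrier of S-adenosylmethionine, without and with PE. According to the labels PE was added 12 h after transfection and left for 36 h. An untransfected group was not used here. The methods at hand describe 3 independent biological replicates per group, but for another siRNA and other times.

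Necroptosis runs through RIPK3, a kinase that phosphorylates MLKL, the pseudokinase that then breaches the plasma membrane. RIPK3 is engaged through a short shared motif by RIPK1, the kinase of the tumour necrosis factor receptor complex, or by ZBP1, a sensor of nucleic acids in the Z conformation, and caspase-8 cleaves RIPK1 and RIPK3 and so restrains the pathway. Pyroptosis runs through gasdermin D, the pore-forming protein encoded by Gsdmd, which is cut by caspase-1 in inflammasomes or by caspase-4, the rat form of the caspase that senses bacterial lipopolysaccharide in the cytosol. NLRP3 is a sensor that builds inflammasomes, and ASC, the adaptor encoded by Pycard, links such sensors to caspase-1. Several of these genes are known as interferon-inducible in many cell types, and in the heart both pathways are studied chiefly in ischaemic and inflammatory injury.

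The sequence around the start of transcription was examined for the letters of 3 regulatory motifs. RefSeq sequence of the rat assembly GRCr8, from 250 bases before to 50 bases after the start, was at hand for 6 of the 10 genes, namely Ripk1, Ripk3, Mlkl, Casp1, Nlrp3 and Pycard. Both strands were searched for the interferon-stimulated response element GAAANNGAAA, for the interferon-gamma activated site TTCNNNGAA and for the NF-kB consensus. Of 33465 rat promoters of the same length, 3.92% held the first motif, 8.87% the second and 4.18% the NF-kB consensus. Shown are Mlkl (chr19:56213809-56214108, minus strand) and Ripk3 (chr15:33261976-33262275, minus strand), whose RNA rose in both siSlc25a26 comparisons below, Casp1 (chr8:10872580-10872879, plus strand) and Nlrp3 (chr10:44827848-44828147, plus strand), which hold a match, and Pycard (chr1:192033370-192033669, minus strand), whose response to PE differed between the siRNAs. Capitals mark the matches, and all sequences run 5′ to 3′ on the strand of the gene.
Mlkl: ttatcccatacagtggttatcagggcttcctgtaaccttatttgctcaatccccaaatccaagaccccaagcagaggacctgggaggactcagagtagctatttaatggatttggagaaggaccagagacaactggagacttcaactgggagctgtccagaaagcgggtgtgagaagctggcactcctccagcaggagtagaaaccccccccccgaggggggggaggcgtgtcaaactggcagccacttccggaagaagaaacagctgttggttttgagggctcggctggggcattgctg
Ripk3: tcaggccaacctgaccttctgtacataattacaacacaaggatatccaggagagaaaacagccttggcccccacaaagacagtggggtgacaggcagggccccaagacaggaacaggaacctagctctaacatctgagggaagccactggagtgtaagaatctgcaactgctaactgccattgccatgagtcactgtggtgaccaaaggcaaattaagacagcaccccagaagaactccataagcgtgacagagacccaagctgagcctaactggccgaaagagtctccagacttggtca
Casp1: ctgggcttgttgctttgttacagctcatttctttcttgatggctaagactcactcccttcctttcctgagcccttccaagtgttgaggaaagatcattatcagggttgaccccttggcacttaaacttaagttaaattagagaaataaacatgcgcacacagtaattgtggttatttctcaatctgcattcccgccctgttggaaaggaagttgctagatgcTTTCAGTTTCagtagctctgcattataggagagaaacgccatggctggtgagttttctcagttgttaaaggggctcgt
Nlrp3: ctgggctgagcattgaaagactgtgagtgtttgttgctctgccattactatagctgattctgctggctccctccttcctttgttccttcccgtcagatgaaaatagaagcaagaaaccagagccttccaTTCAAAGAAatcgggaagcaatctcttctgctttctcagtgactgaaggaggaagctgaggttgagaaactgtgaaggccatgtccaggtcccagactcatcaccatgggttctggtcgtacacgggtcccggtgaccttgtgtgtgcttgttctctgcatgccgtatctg
Pycard: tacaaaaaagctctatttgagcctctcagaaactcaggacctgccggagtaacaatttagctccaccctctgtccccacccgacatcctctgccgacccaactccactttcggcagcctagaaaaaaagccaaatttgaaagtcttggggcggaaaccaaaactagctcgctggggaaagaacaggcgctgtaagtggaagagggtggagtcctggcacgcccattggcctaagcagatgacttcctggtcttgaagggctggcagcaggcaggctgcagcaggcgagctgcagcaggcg
Casp1 held 1 interferon-stimulated response element on the opposite strand, from position -28 to -19 relative to the start, where the strand of the gene reads TTTCAGTTTC. Nlrp3 held 1 interferon-gamma activated site, TTCAAAGAA, from -121 to -113. None of the 3 motifs was found in the windows of Ripk1, Ripk3, Mlkl and Pycard. A match describes letters in this window and not binding.

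The libraries held 24770972 to 28709049 estimated counts each. Slc25a26 itself stood at 31.4 ± 2.0 CPM, the counts scaled to a common library size with TMM factors, in siNeg and 15.1 ± 0.611 CPM in siSlc25a26 (SD, n = 3 each). It was lower there, at -1.08 on the log2 scale (edgeR adjusted p = 1.08e-05). With PE the gene stood at 101.9 ± 14.1 CPM in siNeg.PE and 102.3 ± 3.69 in the libraries labelled siSlc25a26.PE, and the log2 fold change was -0.0062, with a 95% interval of -0.24 to 0.22 (edgeR adjusted p = 0.969), so the label of that group was not borne out by the level of its target. Cardiomyocyte markers were high throughout, with a summed level of 10 markers between 21003 and 30700 CPM. Markers of cells other than cardiomyocytes were present too, and their levels differed between the groups. The summed level of 15 macrophage and monocyte markers was 125 to 150 CPM in siNeg, 68.3 to 79.2 in siNeg.PE, 72.4 to 80.5 in siSlc25a26 and 47.6 to 59.0 in siSlc25a26.PE. Of the 15, 13 or 14 were above 3 counts in every library of each group, with Lyz2 at 624 to 2590 counts per library, while the marker Cd163 had 0 or 1. The sum of 10 fibroblast markers was 19547 to 21589 CPM in siNeg, 10973 to 11625 in siNeg.PE, 11614 to 13332 in siSlc25a26 and 8652 to 9574 in siSlc25a26.PE. Col1a1 and Fn1 held most of this sum, at 13318 and 3947 CPM in siNeg, and not every marker followed it. With PE in siNeg 5 of the 10 were called lower and 0 higher, while the mean of Dcn went from 102 to 124 CPM and that of Pdgfra from 68.4 to 89.0. The sum of 6 smooth muscle and pericyte markers was 3246 to 3497 CPM in siNeg, 1585 to 2006 in siNeg.PE, 1624 to 1901 in siSlc25a26 and 1653 to 1744 in siSlc25a26.PE. Of these 6, with PE in siNeg 4 were called lower and 2 higher, among them Cnn1, which went from 40.5 to 122 CPM. In bulk RNA fewer cells of a type and less RNA per cell cannot be told apart.

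Transfection with siSlc25a26 alone was compared with siNeg to ask how these genes stood after the knockdown. Zbp1, Casp1, Mlkl, Ripk3, Casp8 and Gsdmd rose, and no gene of the 10 fell. Zbp1 went from nearly no reads to a moderate level, Ripk3 and Mlkl more than tripled, and Casp8 and Gsdmd rose 2.21-fold and 1.86-fold. Ripk1, Casp4, Nlrp3 and Pycard were not called. A gene was called where it differed by more than 1.5-fold at an adjusted p below 0.05 in edgeR's quasi-likelihood test over all genes. All 10 genes passed the filter on low counts, 6 were called higher and 0 lower, against a background of 16.1% of 13829 tested genes called in either direction, 8.92% higher and 7.2% lower. Zbp1 and Casp1 passed that filter only through their siSlc25a26 libraries, so they could only be called higher. Over all 10 genes, these 2 included, the median log2 fold change was 1.02, beside 0.0145 over all genes tested. The macrophage markers went the other way, with 0 of 12 tested called higher and 8 called lower, of 10 fibroblast markers 0 were called higher and 6 lower, of 6 smooth muscle and pericyte markers 0 were called higher and 4 lower, and their part in these values was not tested.

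**Figure D1:**
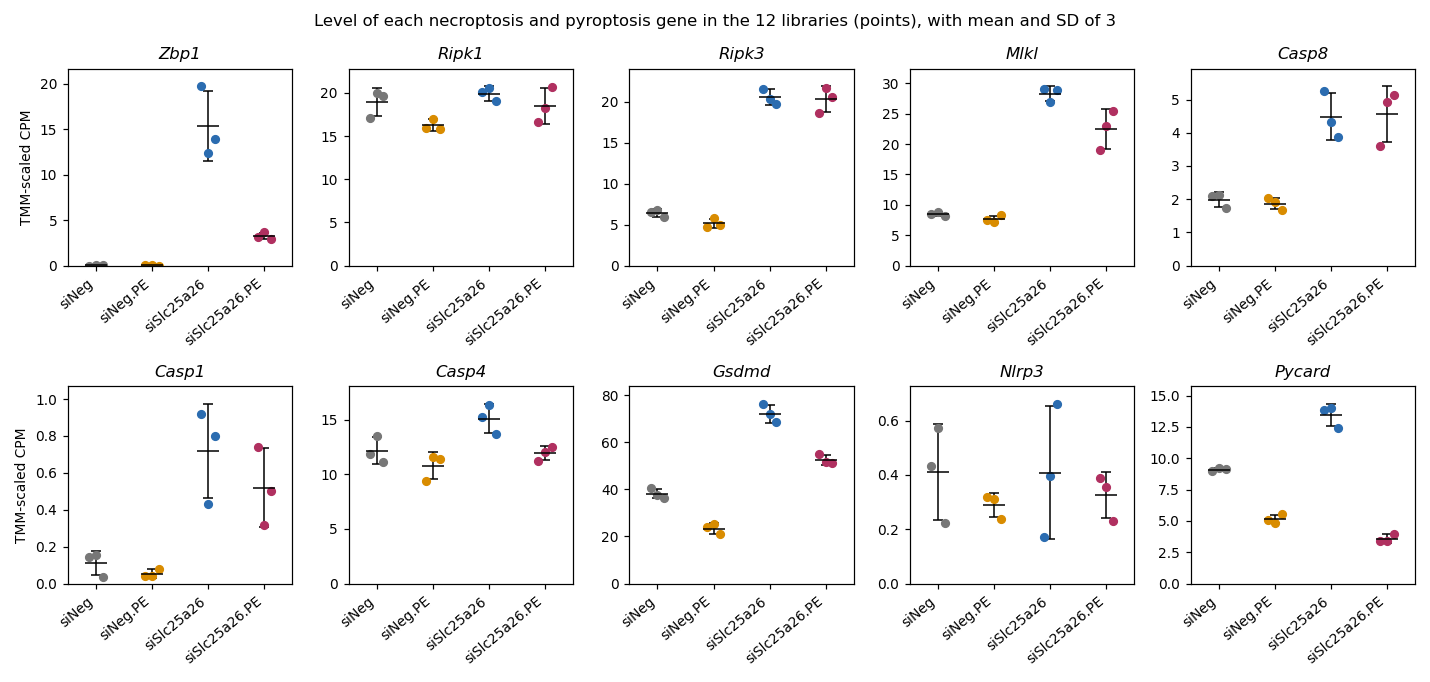
Level of each of the 10 genes (y axis, TMM-scaled CPM on a linear axis from 0) in the 4 groups, where points are the 12 libraries and bars the mean and SD of 3. Zbp1, Ripk3, Mlkl, Casp8, Casp1 and Gsdmd are higher in both siSlc25a26 groups than in both siNeg groups, whereas Pycard is highest in siSlc25a26 (13.4 CPM) and lowest in siSlc25a26.PE (3.58 CPM).

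Zbp1 (NCBI Gene 171091), the sensor that hands on to RIPK3, had 0, 2 and 1 counts in the 3 siNeg libraries and 579, 375 and 401 in the 3 siSlc25a26 libraries. This was a level of 15.4 ± 3.86 CPM against 0.0377 ± 0.0381 (SD, n = 3 each). The ratio of the scaled counts was 414, with a 95% counting interval of 141 to 2008 that covers counting error only. The fitted log2 fold change was 8.51 (edgeR adjusted p = 4.75e-07), a size that depends on the few siNeg reads and was 9.37 without siNeg replicate 2, 6.28 on log2(FPKM + 0.1) and 3.34 on log2(FPKM + 1). The siNeg group was at or below 3 counts in each library, the number taken here as the limit of detection.

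Ripk3 (246240), the kinase at the centre of the pathway, measured 6.56, 6.79 and 5.94 CPM in siNeg and 21.6, 20.3 and 19.7 CPM in siSlc25a26. The groups were far apart and each was narrow. Ripk3 rose by a log2 fold change of 1.65 with a standard error of 0.0923 (edgeR adjusted p = 1.63e-06). Mlkl (690743), whose product breaks the membrane, measured 8.48, 8.85 and 8.23 CPM in siNeg and 28.98, 26.9 and 28.9 CPM in siSlc25a26. Its log2 fold change was 1.71 with a standard error of 0.0803 (edgeR adjusted p = 4.76e-07). The sensor, the kinase and the executioner of necroptosis were thus all called higher.

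Ripk1 (306886), the kinase that couples the tumour necrosis factor receptor to RIPK3, measured 17.1, 20.02 and 19.7 CPM in siNeg and 20.1, 20.6 and 19.0 CPM in siSlc25a26. The groups overlapped. Its log2 fold change was 0.05, with a 95% interval of -0.15 to 0.24 (edgeR adjusted p = 0.686). Casp8 (64044), the protease that restrains necroptosis, had 58, 56 and 47 counts in siNeg and 154, 131 and 111 in siSlc25a26. It rose by a log2 fold change of 1.14 with a standard error of 0.172 (edgeR adjusted p = 0.000798). In the GRCr8 annotation the spans of Casp8 and Cflar overlap, as do those of Ripk3 and Nfatc4 and of Ripk1 and Serpinb6a, and no source used here says whether strand was used in counting. Cflar was called higher too, with a log2 fold change of 1.47, whereas Nfatc4, named only for its position, was not called and had a log2 fold change that came to -0.22 (edgeR adjusted p = 0.206). Serpinb6a lay lower but inside 1.5-fold, at -0.40 here and -0.36 under PE (edgeR adjusted p = 0.000555 and 0.00236). Its part in the Ripk1 values was not tested.

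Of the inflammasome genes, Casp1 (25166), the protease of the complex and the gene whose window above holds the interferon element, had 4, 4 and 1 counts in siNeg and 27, 13 and 23 in siSlc25a26. All siSlc25a26 libraries were higher, at a low level of 0.716 ± 0.255 CPM against 0.111 ± 0.0647 (SD, n = 3 each). The ratio of the scaled counts was 6.41 with a counting interval of 3.17 to 14.7, and the log2 fold change was 2.61 with a standard error of 0.527 (edgeR adjusted p = 0.00387). On log2(FPKM + 1), where a pseudocount of 1 exceeds every value of this gene, the difference of 0.55 lay inside the 1.5-fold line. Casp4 (114555), the caspase of the lipopolysaccharide branch, measured 11.8, 13.5 and 11.1 CPM in siNeg and 15.3, 16.3 and 13.7 CPM in siSlc25a26. These groups did not overlap, and the log2 fold change of 0.29 had a 95% interval of 0.04 to 0.53 and missed the threshold (edgeR adjusted p = 0.0550).

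Gsdmd (315084), the pore former on which both caspases act, measured 40.4, 37.6 and 36.6 CPM in siNeg and 76.2, 72.0 and 68.5 CPM in siSlc25a26. It rose by a log2 fold change of 0.89 with a standard error of 0.0637 (edgeR adjusted p = 8.57e-06). Pycard (282817), the adaptor, measured 8.95, 9.19 and 9.11 CPM in siNeg and 13.9, 13.99 and 12.4 CPM in siSlc25a26. Its groups were apart, but the log2 fold change of 0.54 was a 1.45-fold difference and lay inside the fold threshold (edgeR adjusted p = 0.00127). It passed that threshold on log2(FPKM + 0.1), with 0.60, where the median of all genes itself lay at 0.069. Without siSlc25a26 replicate 3 it passed as well, with 0.59. Nlrp3 (287362), the sensor, had 12, 15 and 6 counts in siNeg and 5, 12 and 19 in siSlc25a26, so the groups overlapped widely. Its log2 fold change of -0.03 had a 95% interval of -1.23 to 1.17 (edgeR adjusted p = 0.972), and at this depth a difference of less than about that size was not detectable.

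**Figure D2:**
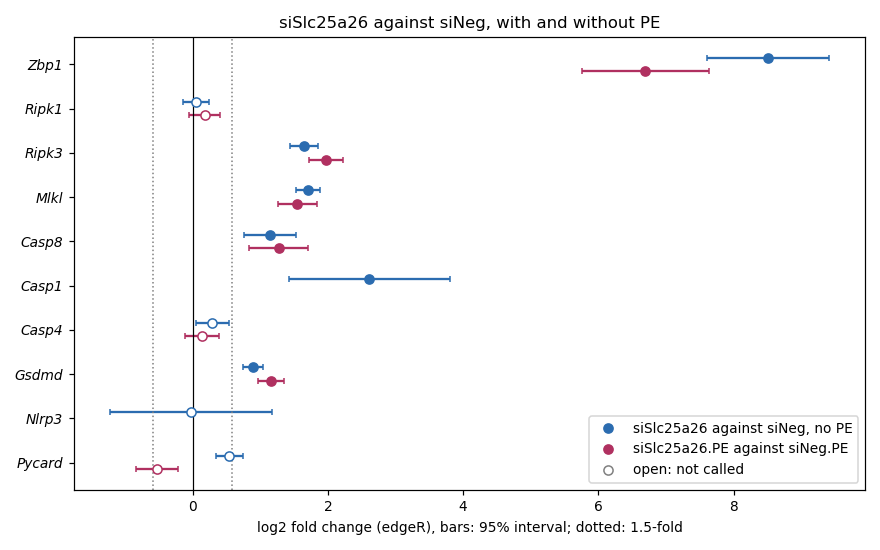
Log2 fold change of siSlc25a26 against siNeg (upper point of each pair, blue) and of siSlc25a26.PE against siNeg.PE (lower point, red) for each gene tested, with 95% intervals from edgeR, where filled points are called, open points are not, and dotted lines mark 1.5-fold. Zbp1 lies farthest to the right in both, and Pycard changes side from 0.54 to -0.53 with neither value called.

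The second comparison set the libraries labelled siSlc25a26.PE against siNeg.PE, in which both groups had received PE. Zbp1, Ripk3, Mlkl, Casp8 and Gsdmd were called higher here too, and none was called lower. Casp1 and Nlrp3 had too few counts to pass the filter, so 8 of the 10 genes were tested. Of these, 5 were called higher and 0 lower, against 15.8% in either direction, 7.71% higher and 8.1% lower, among 13671 tested genes. Zbp1 passed the filter only through the siSlc25a26.PE libraries, so it could only be called higher. The median over the 8 was 1.21 and over all genes -0.0028. In this comparison 1 of 11 tested macrophage markers was called higher and 2 lower, and of 10 fibroblast markers 1 was called higher and 4 lower. Of 6 smooth muscle and pericyte markers 0 were called higher and 3 lower. The part of these markers was likewise not tested. These groups held Slc25a26 at like levels, as given above.

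Zbp1 had 1, 1 and 0 counts in siNeg.PE and 81, 92 and 76 in siSlc25a26.PE, at 3.25 ± 0.368 CPM (SD, n = 3). The ratio of the scaled counts was 123 (95% counting interval 33.8 to 1023), with a fitted log2 fold change of 6.69 (edgeR adjusted p = 4.35e-06). On log2(FPKM + 0.1) the difference was 4.09 and on log2(FPKM + 1) it was 1.46. Ripk3 measured 4.70, 5.75 and 4.99 CPM in siNeg.PE and 18.6, 21.7 and 20.6 CPM in siSlc25a26.PE, a log2 fold change of 1.97 with a standard error of 0.112 (edgeR adjusted p = 2.46e-06). Mlkl measured 7.44, 7.19 and 8.26 CPM against 19.0, 22.9 and 25.5 CPM, a log2 fold change of 1.55 with a standard error of 0.128 (edgeR adjusted p = 2.87e-05). None of these groups overlapped. Casp8 had 51, 49 and 42 counts in siNeg.PE and 92, 124 and 133 in siSlc25a26.PE, and its log2 fold change was 1.27 with a standard error of 0.193 (edgeR adjusted p = 0.000988). Ripk1 again overlapped between the groups, with 0.18 and a 95% interval of -0.05 to 0.41 (edgeR adjusted p = 0.200).

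Gsdmd measured 23.8, 25.4 and 20.9 CPM in siNeg.PE and 54.9, 51.5 and 51.1 CPM in siSlc25a26.PE. It was higher by a log2 fold change of 1.16 with a standard error of 0.0852 (edgeR adjusted p = 1.39e-05). Casp4 overlapped between the groups at a log2 fold change of 0.13, with a 95% interval of -0.11 to 0.38 (edgeR adjusted p = 0.361). Casp1 had 1, 1 and 2 counts in siNeg.PE and 19, 8 and 13 in siSlc25a26.PE. These did not overlap, the ratio of the scaled counts was 9.90 (95% counting interval 3.58 to 38.1), and with no filter edgeR gave a log2 fold change of 3.18 (adjusted p = 0.00345). Nlrp3 had 8, 8.23 and 6 counts against 10, 9 and 6, a ratio of 1.12 with a counting interval of 0.609 to 2.09.

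Pycard was the gene of the 10 whose values lay lower in the libraries labelled siSlc25a26.PE. It measured 5.09, 4.86 and 5.51 CPM in siNeg.PE and 3.35, 3.42 and 3.98 CPM in siSlc25a26.PE, with no overlap. The log2 fold change of -0.53 (edgeR adjusted p = 0.0139) was a 1.45-fold difference and so was not called. It was called on log2(FPKM + 0.1), at -0.59, where the median of all genes itself lay at -0.065. Without siSlc25a26.PE replicate 3 it was called as well, at -0.61.

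PE was then compared with no PE within each siRNA. These comparisons share the libraries of all 4 groups with those above, so their values are set side by side and not counted as separate support. In siNeg cells, PE went with lower Gsdmd and Pycard, and with no gene higher. Zbp1, Casp1 and Nlrp3 did not pass the filter there. Of the 7 genes tested, 0 were called higher and 2 lower, against 20.7% in either direction, 12.4% higher and 8.24% lower, among 13719 tested genes. The median over the 7 was -0.23 and over all genes 0.0002. Gsdmd fell from 38.2 ± 2.01 to 23.4 ± 2.27 CPM (SD, n = 3 each), with -0.72 as its log2 fold change and a standard error of 0.0841 (edgeR adjusted p = 0.000333). Pycard fell from 9.08 ± 0.121 to 5.15 ± 0.328 CPM, or -0.83 on the log2 scale, with a standard error of 0.105 (edgeR adjusted p = 0.000502). Ripk3 and Ripk1 also lay lower in every PE library, with log2 fold changes of -0.33 and -0.23, and missed the threshold (edgeR adjusted p = 0.0563 and 0.0577). Mlkl, Casp4 and Casp8 overlapped, with -0.17, -0.18 and -0.10. Of 12 macrophage markers tested, 9 were called lower and 0 higher in the same comparison, and of 10 fibroblast markers 5 were called lower and 0 higher. Their part in the values of Gsdmd and Pycard was not tested.

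In siSlc25a26 cells, the libraries labelled siSlc25a26.PE had less Zbp1 and less Pycard than those without PE. Of 9 genes tested, 0 were called higher and 2 lower, against 20.5% in either direction, 10.1% higher and 10.4% lower, among 13776 tested genes. The median over the 9 was -0.33 and over all genes -0.0036. Zbp1 fell from 579, 375 and 401 counts to 81, 92 and 76, a 4.69-fold difference with a log2 fold change of -2.23 and a standard error of 0.187 (edgeR adjusted p = 1.68e-05). Pycard fell from 13.4 ± 0.861 to 3.58 ± 0.345 CPM (SD, n = 3 each), a 3.72-fold difference with a log2 fold change of -1.89 and a standard error of 0.114 (edgeR adjusted p = 2.20e-06). Both were clear of overlap.

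The kinase Ripk3 stood at 20.5 ± 0.956 and 20.3 ± 1.54 CPM without and with PE in these cells, a log2 fold change of -0.01 with a 95% interval of -0.19 to 0.18 (edgeR adjusted p = 0.958). Casp8 and Ripk1 overlapped as well, at 0.03 and -0.10 (edgeR adjusted p = 0.889 and 0.414). Mlkl, Casp4 and Gsdmd were lower in every PE library but inside 1.5-fold, at -0.32, -0.33 and -0.45 (edgeR adjusted p = 0.0286, 0.0153 and 0.000286). Gsdmd passed the fold threshold on both FPKM scales, at -0.61 with a pseudocount of 1 and -0.63 with 0.1, where the median of all genes itself lay at -0.13 and -0.17. Casp1 overlapped at -0.44 with a 95% interval of -1.35 to 0.47 (edgeR adjusted p = 0.385), and Nlrp3 was not tested. Here 4 of 13 tested macrophage markers were called lower and 0 higher. Of 10 fibroblast markers 0 were called in either direction, and of 6 smooth muscle and pericyte markers 2 were called higher and 1 lower. The part of these markers in the result was not tested.

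**Figure D3:**
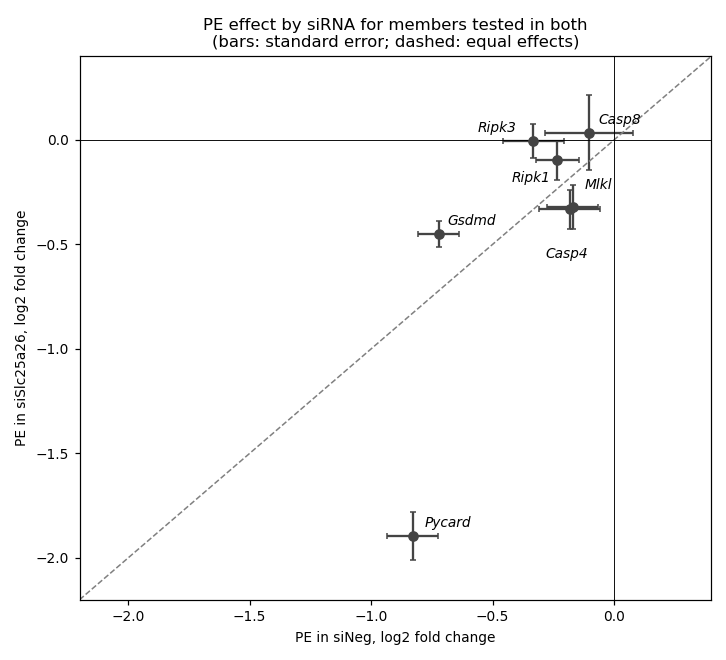
Log2 fold change with PE in siNeg cells (x axis) and in siSlc25a26 cells (y axis) for the 7 genes tested in both, with standard errors from edgeR and a dashed line where both would be equal. Pycard lies far below the line, at -0.83 and -1.89, and the other 6 genes lie between -0.72 and 0.03 on both axes.

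Whether the PE effect differed between the siRNAs was tested as an interaction over all 12 libraries. All 10 genes entered, 0 were called higher and 1 lower, against 5.5% in either direction, 2.16% higher and 3.34% lower, among 14097 tested genes. The gene called was Pycard, with a difference of PE effects of -1.09 on the log2 scale and a standard error of 0.140 (edgeR adjusted p = 0.000687). Its level thus ranked siSlc25a26, siNeg, siNeg.PE and siSlc25a26.PE from highest to lowest, with no overlap between neighbours. For Gsdmd the difference was 0.25 with a 95% interval of 0.02 to 0.48 (edgeR adjusted p = 0.154), and for Ripk3 0.30 with an interval of 0.01 to 0.60 (edgeR adjusted p = 0.181). Zbp1 could hardly be placed, at -1.81 with a standard error of 1.49 (edgeR adjusted p = 0.474), because both siNeg groups were at or below the detection limit in every library. On log2(FPKM + 1) and log2(FPKM + 0.1) the Zbp1 difference was called, at -1.89 and -2.19 (limma adjusted p = 0.000124 and 0.00100). There its values of 0 to 0.05 FPKM in siNeg and 0 to 0.02 in siNeg.PE lay below either pseudocount. The pseudocount thus holds the PE effect in siNeg near 0, and these calls cannot tell whether the PE effects on Zbp1 differed. For Mlkl, Casp4, Casp8, Ripk1, Casp1 and Nlrp3 the differences lay between -0.17 and 0.56 with adjusted p of 0.483 or more in edgeR.

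Order of the groups differed from gene to gene. Zbp1, Mlkl and Gsdmd each stood highest in siSlc25a26, next in siSlc25a26.PE, and lower in both siNeg groups, with the 2 siSlc25a26 groups clear of each other. For Ripk3, Casp8 and Casp1 the siSlc25a26 and siSlc25a26.PE libraries overlapped, and both lay clear above siNeg and siNeg.PE. Only Gsdmd and Pycard had all 4 groups clear of one another. Ripk1 overlapped between all neighbours in the order of its means, from 19.9 CPM in siSlc25a26 to 16.3 in siNeg.PE, and Nlrp3 did so too, from 0.409 to 0.290 CPM. For 3 libraries against 3 the two-sided exact permutation test cannot give a p below 0.1, and every pair of groups without overlap reached that value.

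Levels of different genes were compared per length, in the FPKM (fragments per kilobase of gene, scaled to library size) that the authors deposited. In siNeg cells Pycard, at 18.4 ± 0.255 FPKM, and Gsdmd, at 17.1 ± 0.762, stood above Casp4, at 10.7 ± 1.13 (SD, n = 3 each). Mlkl, Ripk1 and Ripk3 followed at 4.57, 4.34 and 4.02 FPKM and overlapped. Casp8 was at 0.943 FPKM, and Nlrp3, Casp1 and Zbp1 were at or below 0.1. In siNeg.PE cells Gsdmd, Pycard and Casp4 overlapped at 10.2, 10.1 and 9.13 FPKM. In siSlc25a26 cells the order was Gsdmd at 33.3 FPKM, Pycard at 28.1, Mlkl at 15.3, Casp4 at 13.6, Ripk3 at 12.7, Zbp1 at 9.56, Ripk1 at 4.62 and Casp8 at 2.07. Of these, Mlkl, Casp4 and Ripk3 each overlapped with the next in the order, and Zbp1 lay clear of Ripk1. Zbp1 stood last in siNeg. Casp1 and Nlrp3 remained at 0.613 and 0.113 FPKM. In the libraries labelled siSlc25a26.PE, Gsdmd led at 21.5 FPKM, Ripk3 and Mlkl stood next at 11.3 and 11.1, Casp4 overlapped with Mlkl at 9.55, and Pycard lay clear below them at 6.66.

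**Figure D4:**
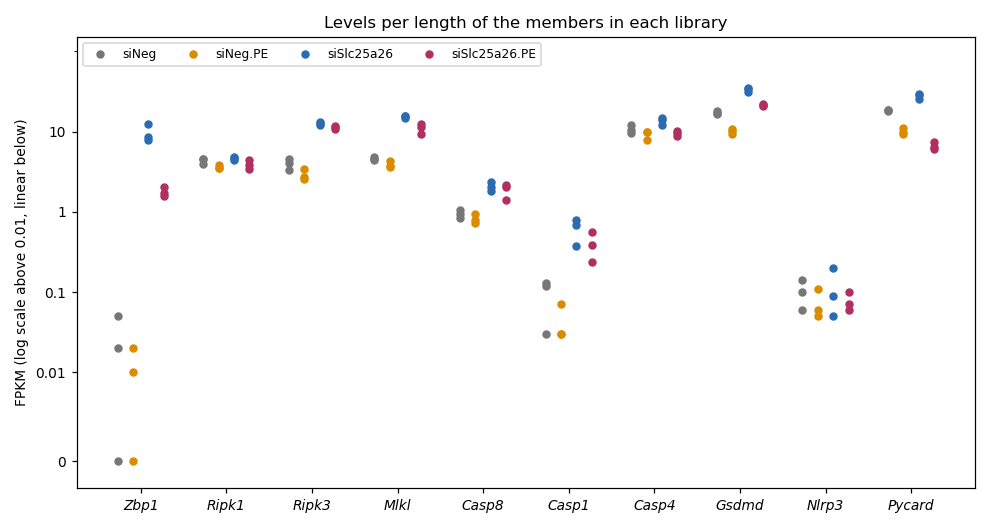
Level per length of each gene (y axis, FPKM, logarithmic above 0.01 and linear below) in each of the 12 libraries, coloured by group. Casp1 and Nlrp3 stay below 1 FPKM in all 12 libraries, and Zbp1 runs from 0 in siNeg to 12.3 in siSlc25a26.

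Ratios of FPKM within a library, chosen after the values were seen, gave the balance between partner genes. Ripk3 relative to Ripk1 was 0.742 to 1.06 in siNeg and 0.727 to 0.897 in siNeg.PE, and 2.64 to 2.84 in siSlc25a26 and 2.61 to 3.19 in siSlc25a26.PE. Every siSlc25a26 library, with or without PE, thus held more Ripk3 than Ripk1 per length. Gsdmd relative to Pycard was 0.900 to 0.991 in siNeg, 0.848 to 1.16 in siNeg.PE and 1.14 to 1.21 in siSlc25a26, and 2.84 to 3.62 in siSlc25a26.PE. Mlkl relative to Casp8 ranged from 4.01 to 6.01 across the siNeg and siNeg.PE libraries and from 5.50 to 8.59 across the siSlc25a26 and siSlc25a26.PE libraries, and these ranges overlapped.

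Around the 10 genes, 79 genes of the same pathways were listed by role, of which 76 were in the tables. In siSlc25a26 against siNeg 66 of them were tested, 24 were called higher and 1 lower, with a median log2 fold change of 0.27. Over all genes 8.92% were called higher there and 7.2% lower. Under PE 65 were tested, 20 were called higher and 4 lower, with a median of 0.22, beside 7.71% higher and 8.1% lower over all genes. Tnf and Aim2 passed the filter on low counts only through the siSlc25a26 and siSlc25a26.PE libraries, so they could only be called higher. Called the same way in both were 17 genes that rose and 1, Ikbkg, that fell. Among the upstream partners of necroptosis 14 of 27 tested were called higher and 1 lower without PE, and 9 of 26 higher and 1 lower under PE. Tnf, the cytokine that starts the pathway, had 2 to 9 counts per library in siNeg and 276 to 324 in siSlc25a26, and its ratio of scaled counts was 51.2 (95% counting interval 31.3 to 89.9). The fitted log2 fold change of 5.62 became 6.22 without siNeg replicate 2, which held 9 of the 16 siNeg counts. Under PE the ratio was 46.03 (20.9 to 126). Tlr3, a receptor for double-stranded RNA, rose by log2 fold changes of 2.28 without and 1.67 under PE (edgeR adjusted p = 8.10e-06 and 4.90e-05).

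Among the other upstream partners, Birc3, a ubiquitin ligase that acts on RIPK1, rose by 2.38 without and 1.47 under PE on the log2 scale (edgeR adjusted p = 2.47e-06 and 5.83e-05). Tnfaip3, which encodes the deubiquitinase A20, rose by 1.83 and 1.48 (edgeR adjusted p = 3.29e-07 and 3.83e-06). Cflar, which encodes the caspase-8 partner cFLIP, rose by 1.47 and 1.15 (edgeR adjusted p = 1.38e-05 and 0.000228).

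Of a list of inflammasome sensors and related genes, 4 of 10 tested were called higher in each comparison. Called lower were 0 without PE and 1 under PE, which was Mefv, the gene of pyrin, at -1.78 (edgeR adjusted p = 0.00731). Over all genes 8.92% were called higher without PE and 7.71% under PE, and 7.2% and 8.1% lower. Aim2, a sensor of cytosolic DNA, had 1 count in all over the 3 siNeg libraries and 122, 105 and 102 in siSlc25a26, and 2 counts in all over siNeg.PE and 45, 41 and 53 in siSlc25a26.PE. Nlrc5, better known as an activator of MHC class I genes, rose by 4.03 and 3.41 in counts (edgeR adjusted p = 3.65e-08 and 2.52e-08). Its FPKM moved less. They went from 6.24 to 13.5 without PE and from 6.80 to 7.62 under PE, where limma on log2(FPKM + 1) gave 0.14 (adjusted p = 0.457). Txnip, which binds thioredoxin and NLRP3, rose by 0.75 and 0.76 (edgeR adjusted p = 0.00333 and 7.98e-05). Nlrp1a, a sensor of microbial proteases, rose by 1.04 without PE (edgeR adjusted p = 0.00213), a call lost on log2(FPKM + 1) at 0.23, and its 0.91 under PE (edgeR adjusted p = 0.0344) lost the call on both FPKM scales and on leaving out siNeg.PE replicate 2 or 3 or siSlc25a26.PE replicate 2 or 3, with adjusted p from 0.0523 to 0.105 in those 4 fits.

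Among the effectors and cytokines of pyroptosis, 1 of 6 tested was called higher in each comparison and 0 lower. Over all genes 8.92% were called higher without PE and 7.71% under PE. The gene called of these 6 was Casp12, an inflammatory caspase and neighbour of Casp4 in the genome, at 1.27 and 1.33 (edgeR adjusted p = 0.000458 and 0.000776). Gsdme, another gasdermin, overlapped at 0.53 and 0.39 (edgeR adjusted p = 0.266 and 0.292). The cytokines that leave through gasdermin pores were near the detection limit, with 0 to 7 counts of Il1b and 1 to 9 counts of Il18 per library over all 12 libraries, and were not tested. A list of cytokine receptors and inhibitors also held signalling proteins and inhibitors of other proteins. Of this list 4 of 9 tested were called higher without PE and 5 of 9 under PE, with 0 lower in each. Il18bp, which neutralises interleukin-18, rose by 3.04 and 2.63 (edgeR adjusted p = 6.10e-09 and 3.83e-06). Serpinb9, an inhibitor of granzyme B, rose by 2.19 and 1.67, and Serping1, the C1 inhibitor, by 1.71 and 2.10 (edgeR adjusted p of 1.65e-05 or less in all 4 tests). Of 14 genes of intrinsic apoptosis, 1 was called higher and 0 lower without PE, and 1 higher and 2 lower under PE, which were Bcl2l11 at -0.92 and Bad at -0.61 (edgeR adjusted p = 0.000475 and 0.00142). The share called higher was near that of all genes, and over all genes 7.2% were called lower without PE and 8.1% under PE. The gene called higher was Pmaip1, which encodes the BH3-only protein NOXA, at 0.91 and 1.07 (edgeR adjusted p = 0.00109 and 0.000969). Under PE its call was lost on both FPKM scales, and without PE on log2(FPKM + 1).

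**Figure D5:**
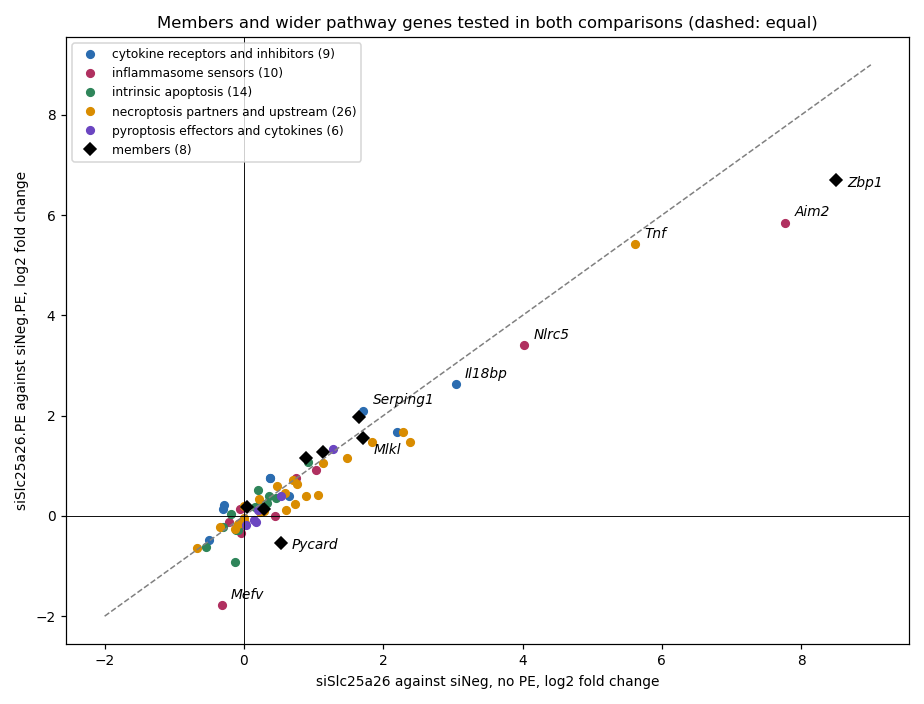
Log2 fold change of siSlc25a26 against siNeg (x axis) and of siSlc25a26.PE against siNeg.PE (y axis) for the 8 genes tested in both (black diamonds) and 65 wider pathway genes (circles coloured by role), with a dashed line where both would be equal. Zbp1, Aim2 and Tnf lie at the upper right, and Pycard lies below 0 on the y axis only.

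For PE within siNeg, 63 of the wider genes were tested, 7 were called higher and 6 lower, beside 12.4% higher and 8.24% lower over all genes. Within siSlc25a26, 66 were tested, 8 were called higher and 13 lower, beside 10.1% and 10.4% over all genes. The interaction was called for 4 of 66, in each case in the negative direction, which is a share near the 5.5% of all genes called in either direction. These were Birc3 at -0.92, Bcl2l11 at -0.82, Mefv at -1.47 and Nlrc5 at -0.63 (edgeR adjusted p = 0.00652, 0.00611, 0.0354 and 0.0374).

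The genes whose levels over the 12 libraries ran most like those of 3 of the 10 were found by the mean absolute difference of log2 CPM centred on its own mean, over 14096 genes. For Zbp1 these were RGD1305184 at 0.385, LOC102555634 at 0.395, RT1-T24-3 at 0.406, Cmpk2 at 0.413 and Ifi47 at 0.415. For Mlkl they were Lgmn at 0.104, Pcdh20 at 0.118, Rnf114 at 0.124, C1qtnf1 at 0.145 and Ripk3 at 0.146, so another of the 10 genes was among the closest. For Nlrp3, a gene with 5 to 19 counts per library, they were Cox4i2 at 0.201, Cyp2t1 at 0.220, LOC100911186 at 0.243, Arhgap4 at 0.244 and Brms1 at 0.252. These are descriptions over libraries that share groups.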

How the data were processed

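RNA of 12 NRVM libraries was sequenced at BGI. The authors deposited estimated counts per gene, of which 20.8% to 21.9% per library were not whole, and FPKM. The submitters' processing notes name HISAT, Bowtie2 and Rnor_6.0; the counter, annotation and strandedness are not given in the sources used here. The methods at hand describe another siRNA and other times, so groups follow the labels. Counts were rounded, scaled by TMM over all 12 libraries for levels, and tested with edgeR 4.0.16 (filterByExpr, quasi-likelihood F-test, Benjamini-Hochberg adjustment over all genes) in R 4.3.3, with only the 6 libraries compared in each fit and all 12 for the interaction. Standard errors come from the F statistic. Alternatives used DESeq2 1.42.0, limma 3.58.1 on voom or log2(FPKM + 1 or 0.1), other filters and size factors, all 12 libraries, no fold threshold, the replicate number as a block and each library left out. The procedure was tested on simulated data. The members and lists were chosen with earlier results of these data known. Named genes were all 10 members, Slc25a26, up to 4 genes per role called the same way in both siRNA comparisons, and Il1b, Il18, Tnf, Gsdme, Aim2 and Cflar (1 further gene of that rule is not reported here); Ikbkg, Mefv, Bad, Bcl2l11, Nfatc4 and Serpinb6a were added after their values were seen. Of 18469 identifiers, 91.8% matched the RefSeq table of GRCr8, used for names, neighbours and promoters. The lowest chi-square per gene over the 12 pairs of replicates within a group was 5.34, so no library repeated another of its own group. Pairs across groups were not compared in this way. Depth sets the limit of detection, 3 counts, at 0.104 to 0.121 CPM, for counting error only. The labels give no batch.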

Additional observations from a re-analysis of the deposited data

Results flagged for a closer look

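Pycard was marked for a closer look because its PE effect differed between the siRNAs in the interaction test over all 12 libraries, where the log2 fold changes differed by -1.09 (edgeR adjusted p = 0.000687). It was lower with PE in 3 of 3 libraries of each siRNA, by a log2 fold change of -0.83 in siNeg and -1.89 in siSlc25a26. Slc25a26 was marked for the same reason, with a difference of 1.06 (edgeR adjusted p = 0.000466) between a PE effect of 1.69 in siNeg and 2.77 in siSlc25a26, and its level in the libraries labelled siSlc25a26.PE was that of siNeg.PE. The causes were not tested. Groups of 3 were not searched for outlying libraries.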

How the results depend on the processing

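Over the alternatives, 1251 single-gene values kept their direction and side of the threshold, 13 lost the call, 13 gained it and 28 changed sign. On log2(FPKM + 1) the genes called were 1590 for PE in siNeg, 1284 for siSlc25a26 without PE and 1379 under PE; with no fold threshold they were 6785, 6221 and 5488, with 7219 for PE in siSlc25a26 and 1581 for the interaction. Leaving out 1 library gave 2398 to 3132 for PE in siNeg, 1935 to 2614 without PE, 1964 to 2174 under PE, 2522 to 3139 for PE in siSlc25a26 and 521 to 951 for the interaction, with 6 to 7 of the 10 genes higher without PE and 5 to 6 higher under PE. Under PE 1 of the 10 genes, Pycard, was called lower on log2(FPKM + 0.1), with no fold threshold and without siSlc25a26.PE replicate 3 (0 to 1 over the libraries left out). For PE in siSlc25a26 5 were lower with no fold threshold. For the interaction 2 were lower on both FPKM scales, Pycard and Zbp1, and for Zbp1 the limit set by the pseudocount applies as given above. On the FPKM scales the share of higher calls went from 49.2% to 27.4% (pseudocount 1) and 27.1% (0.1) for PE in siSlc25a26, and from 39.3% to 23.4% and 22.1% for the interaction, where the median of all genes shifted to -0.13 and -0.17, and to -0.11 and -0.14.

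Values near 0 changed sign. Without PE these were Nlrp3 (0.016 on log2(FPKM + 1), 0.052 on log2(FPKM + 0.1), -0.54 to 0.34 over the libraries left out) and Ripk1 (-0.023 to 0.081 over the libraries left out). Under PE Slc25a26 gave 0.0044 with voom, 0.0032 with the block, 0.0045 with all 12 libraries and -0.13 to 0.084 over the libraries left out. For PE in siSlc25a26 Casp8 gave -0.097 and -0.15 on the FPKM scales and -0.068 to 0.18 over the libraries left out, and Ripk3 -0.051 to 0.056. For the interaction log2(FPKM + 1) gave -0.00040 for Ripk1, -0.14 for Casp1, -0.0023 for Casp8 and -0.011 for Nlrp3, log2(FPKM + 0.1) gave -0.12 for Casp1 and -0.015 for Nlrp3, and Nlrp3 ranged from -0.19 to 0.69 over the libraries left out. The causes were not tested.

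Replicate numbers are shared between groups, but same-numbered libraries did not deviate together in every pair (lowest correlation across genes 0.0094 for PE in siNeg and -0.091, 0.025 and -0.073 in the others), so the number was not taken as a pairing. With the replicate block the genes called were 2969, 2151, 2195, 2710 and 945, of which 2812, 2103, 2119, 2678 and 765 were called without it, and no call among the 10 genes changed.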
